A study of Mus musculus with 10 samples.

Results

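The mouse Cyp3a genes were examined in liver RNA of mice humanized for PXR, CAR, CYP3A4 and CYP3A7. The set holds 9 genes taken by name, *Cyp3a11*, *Cyp3a13*, *Cyp3a16*, *Cyp3a25*, *Cyp3a41a*, *Cyp3a41b*, *Cyp3a44*, *Cyp3a57* and *Cyp3a59*, of 16647 genes in the count table. Of these, 5 have a row in the table and 3 reached the minimum of 60 counts summed over the 10 livers that was set for testing. *Cyp3a16*, *Cyp3a41a*, *Cyp3a41b* and *Cyp3a44* have no row in the table used here. The rule that lists the 9 genes uses no measured value.

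Livers came from 5 control and 5 MI-883-treated mice. All 10 animals carried the PXR-CAR-CYP3A4/3A7 genotype and were fed a high-fat diet (HFD), starting at an age of 10 to 15 weeks. After 8 weeks on HFD, MI-883 was given by gavage at 5 mg/kg on 3 days of each week for 4 weeks, and control mice received the vehicle of 5% DMSO, 5% PEG300 and 90% corn oil. The HFD experiment used mice of both sexes, and according to the study the livers sequenced were from males. MI-883 is described there as an agonist of CAR and an antagonist of PXR. No mouse without the humanization was among the groups, and the labels do not list which mouse Cyp3a genes it removed. The reads were aligned to the mouse genome, so human CYP3A4 and CYP3A7 were not analysed here. Whether reads of these human genes were counted for a mouse member was not tested.

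CYP3A enzymes are heme proteins of the endoplasmic reticulum that oxidize steroids, bile acids and a large share of drugs, and they are most abundant in hepatocytes and enterocytes. PXR and CAR are nuclear receptors that sense such compounds, pair with RXR and bind DNA at repeats of a short half-site, through which they raise the transcription of Cyp3a, Cyp2b and Cyp2c genes. In mouse liver, *Cyp3a11* is the classic target of PXR and is usually set beside human CYP3A4, *Cyp3a41a*, *Cyp3a41b* and *Cyp3a44* are known for higher levels in females, and *Cyp3a16* is known from fetal and young liver. *Cyp3a13* is expressed in liver and intestine. The roles of *Cyp3a57* and *Cyp3a59* are less well described.

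The upstream sequences of 4 members are shown so that the edge genes of the cluster that were still counted can be set beside *Cyp3a13* and the classic target *Cyp3a11*. Each is the 250 bases before an annotated transcript start, from RefSeq on GRCm38 (the build also named mm10), read in the direction of transcription, and capitals mark the half-site AGGTCA or AGTTCA, or its reverse complement TGACCT or TGAACT.
Cyp3a57 (chr5:145345019-145345268, plus strand): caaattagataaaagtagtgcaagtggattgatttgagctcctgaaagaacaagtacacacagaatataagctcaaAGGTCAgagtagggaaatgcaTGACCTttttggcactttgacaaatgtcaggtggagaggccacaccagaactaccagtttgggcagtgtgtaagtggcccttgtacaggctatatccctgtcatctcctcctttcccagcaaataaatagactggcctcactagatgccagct
Cyp3a59 (chr5:146079008-146079257, plus strand): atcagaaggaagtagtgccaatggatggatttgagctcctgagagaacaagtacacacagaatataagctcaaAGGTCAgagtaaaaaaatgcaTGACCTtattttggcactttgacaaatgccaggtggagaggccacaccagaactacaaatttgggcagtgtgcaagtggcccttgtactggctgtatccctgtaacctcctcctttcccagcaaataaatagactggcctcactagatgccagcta
Cyp3a13 (chr5:137921620-137921869, minus strand): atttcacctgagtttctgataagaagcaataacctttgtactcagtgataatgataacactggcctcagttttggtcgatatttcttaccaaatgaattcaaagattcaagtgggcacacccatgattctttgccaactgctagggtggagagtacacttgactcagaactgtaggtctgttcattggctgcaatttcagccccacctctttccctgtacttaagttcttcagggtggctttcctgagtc
Cyp3a11 (chr5:145879855-145880104, minus strand): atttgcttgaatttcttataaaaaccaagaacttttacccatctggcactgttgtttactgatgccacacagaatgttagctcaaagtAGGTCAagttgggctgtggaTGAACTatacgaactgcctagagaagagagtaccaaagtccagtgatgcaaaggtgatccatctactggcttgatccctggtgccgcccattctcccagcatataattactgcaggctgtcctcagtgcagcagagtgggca

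The *Cyp3a57* and *Cyp3a59* sequences were alike, with 228 of 247 aligned bases identical (92.3%). Each held an AGGTCA half-site on the sense strand and another on the antisense strand. Counted from 1 at the upstream end, these stood at bases 77 to 82 and 98 to 103 for *Cyp3a57* and at bases 74 to 79 and 95 to 100 for *Cyp3a59*. *Cyp3a25*, the neighbour of *Cyp3a59*, had its half-sites at the same places as *Cyp3a59* and shared 95.6% of 250 aligned bases with it. *Cyp3a11* held AGGTCA at bases 89 to 94 and AGTTCA on the antisense strand at bases 109 to 114, and neither half-site was found in the *Cyp3a13* or *Cyp3a16* window. The *Cyp3a13* window precedes an annotated start inside the gene and does not cover the sequence before the outermost end of the gene, so it is not a like-for-like contrast. The *Cyp3a57* and *Cyp3a59* windows overlap the first bases of their genes, which have annotated starts further upstream. *Cyp3a44* held AGGTCA at bases 101 to 106, and *Cyp3a41a* and *Cyp3a41b* each held AGTTCA on the antisense strand at bases 121 to 126. Among 32851 mouse promoter windows of this length, AGGTCA occurred on either strand in 14.0% and AGTTCA in 11.8%, and a match is only a description of these letters. Half-sites in 3 spaced arrangements were searched on both strands too. AGGTCA followed after 3 bases by AGGTCA was found in 2 windows in all (0.00609%), and AGTTCA followed after 3 bases by AGTTCA, and TGAACT followed after 6 bases by AGGTCA, in 0, and no member window held any of them.

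The genes lie in 2 places on chromosome 5. In RefSeq on GRCm38, 8 of the 9 members form a cluster of 769830 bases, which runs from *Cyp3a57* (Entrez gene 622127, 145345149 to 145390926, plus strand) to *Cyp3a59* (gene 100041449, 146079208 to 146114978, plus strand). Between them, all on the minus strand, follow *Cyp3a16* (gene 13114, 145436309 to 145469740), *Cyp3a41b* (gene 100041375, 145558664 to 145584732), *Cyp3a41a* (gene 53973, 145694049 to 145720136), *Cyp3a44* (gene 337924, 145773983 to 145805891), *Cyp3a11* (gene 13112, 145854607 to 145879854) and *Cyp3a25* (gene 56388, 145977192 to 146009644). *Cyp3a13* (gene 13113, 137892933 to 137925610, minus strand) stands alone, 7419538 bases before the cluster. All 9 members have 13 exons. The 4 pseudogenes of the family in RefSeq have no row in the table.

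The interior of the cluster is here the span of the members that have no row or did not reach the count minimum for testing. Its separation from the edges, *Cyp3a57* and *Cyp3a59*, follows from this choice and is not a separate result. Below the same minimum were 3428 of the 16647 listed genes. Of the 6 members between 145436309 and 146009644, a stretch of 573336 bases, 2 are listed, *Cyp3a11* and *Cyp3a25*, and these held 8 counts in all 10 livers together. *Cyp3a11* had 0 counts in every control liver, and in the MI-883-treated livers it had 1, 0, 0, 0 and 0. *Cyp3a25* had 0 counts in every control liver and 0, 1, 1, 2 and 3 in the MI-883-treated livers. Both members stayed at or under 3 counts in every liver, a floor that corresponds to 0.0838 to 0.133 CPM (counts scaled by the TMM library size) at the depth of these libraries, so no fold change is given for them. Per exon length this floor is 0.0388 to 0.062 TPM (the level per exon length, scaled to a common total) for *Cyp3a11* and 0.095 to 0.152 TPM for *Cyp3a25*, and it covers counting error only.

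The other 4 members of the interior have no row. The lowest total of any listed gene over the 10 livers was 1 count, so a gene without a single count and a gene left out of the annotation used for counting cannot be told apart. *Cyp3a41a* and *Cyp3a41b* are near copies, with 99.9% identical transcripts, and 90.8% and 88.2% of their 100-base transcript stretches also occur in other genes. The rest of their stretches occur in no other gene. Whether reads from them were lost in counting was not tested. *Cyp3a16* and *Cyp3a44* have little such sequence, 0.123% and 5.37%. Of *Cyp3a11* stretches 0.312% are shared, and of *Cyp3a25* stretches 6.05%, all of them with *Cyp3a59*.

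**Figure D1:**
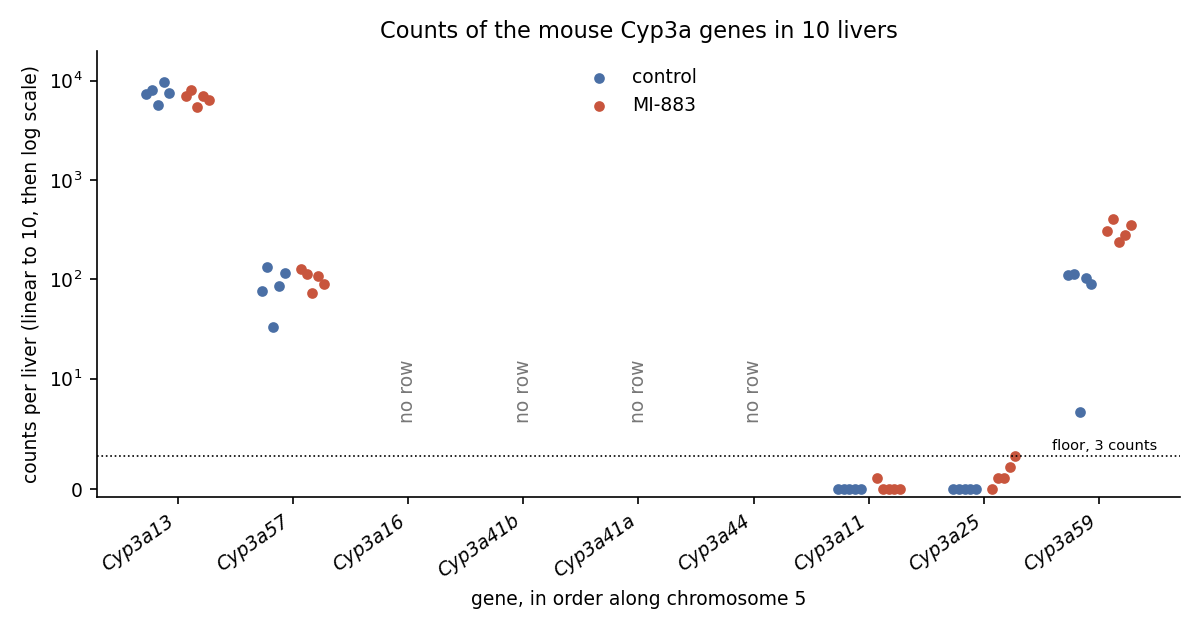
Counts of each of the 9 mouse Cyp3a genes in 5 control and 5 MI-883-treated livers, 1 point per liver, in the order of the genes on the chromosome, on an axis that is linear up to 10 and logarithmic above, with the floor of 3 counts as a dotted line. *Cyp3a13* lies between 5423 and 9741 counts, *Cyp3a57* and *Cyp3a59* between 7 and 406 counts, *Cyp3a11* and *Cyp3a25* at 0 to 3 counts, and 4 members have no row.

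Genes were counted on both sides of this stretch. *Cyp3a57* ends 45382 bases before it and *Cyp3a59* begins 69563 bases after it, and each had more than the floor in all 10 livers. Beyond *Cyp3a57*, the nearest listed gene was *Zscan25*, a zinc finger gene 52908 bases away, with 116 to 195 counts per liver and a log2 fold change of 0.01 (SE 0.11, edgeR quasi-likelihood test, adjusted P = 0.968). Beyond *Cyp3a59*, it was *1700001J03Rik*, 67462 bases away, with 0 to 6 counts per liver. The nearest listed genes to *Cyp3a13* were *Pilrb2* with 24 to 66 counts and *Gjc3* with 35 to 74 counts.

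The question the groups address is whether the members that are still counted changed with MI-883. *Cyp3a59* rose and was the one member to pass the test, while *Cyp3a13* and *Cyp3a57* did not pass it. Over all 13219 tested genes, 1.03% passed in edgeR at an adjusted P under 0.05, with 0.764% higher and 0.265% lower, and in DESeq2 3.5% passed, with 2.2% higher. The single call among 3 tested members is to be read beside these shares. Each library is from another animal, and in RNA of whole liver a change in the number of cells of a type and a change of RNA per cell cannot be told apart.

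*Cyp3a59* had 111, 114, 7, 104 and 89 counts in the 5 control livers and 307, 406, 240, 277 and 355 counts in the 5 MI-883-treated livers. As CPM these are 3.10, 3.56, 0.286, 3.01 and 3.90 in control livers and 10.5, 17.97, 8.88, 12.1 and 12.6 in treated livers. Every treated liver lay above every control liver, and the lowest control liver was replicate 3. Across all tested genes, the groups did not overlap in 3.98%, with the treated livers higher in 2.05% and lower in 1.93%.

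The mean of *Cyp3a59* was 2.77 ± 1.44 CPM in control livers and 12.4 ± 3.43 CPM in treated livers (S.D., n = 5 each). The log2 fold change was 2.15 (SE 0.38, 95% interval 1.33 to 2.97), a 4.42-fold higher level, with an adjusted P of 0.0183 in the quasi-likelihood test of edgeR. DESeq2 gave a log2 fold change of 2.16 (SE 0.53) with an adjusted P of 0.00363. The exact two-sided permutation test over the 10 livers gave P = 0.00794, the smallest value that 5 livers against 5 allow. By P in the edgeR test *Cyp3a59* ranked 57 of the tested genes, and by log2 fold change it ranked 28.

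Control replicate 3 stood apart with 7 counts, and without it the mean of the control livers was 3.39 ± 0.417 CPM (S.D., n = 4). Without that liver the log2 fold change of *Cyp3a59* was 1.87 and the adjusted P in edgeR 0.000539. The call was lost without control replicate 4 (2.18, adjusted P = 0.052) and without MI-883 replicate 2 (1.98, adjusted P = 0.055), and it held in the other 8 fits that leave out a liver.

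**Figure D2:**
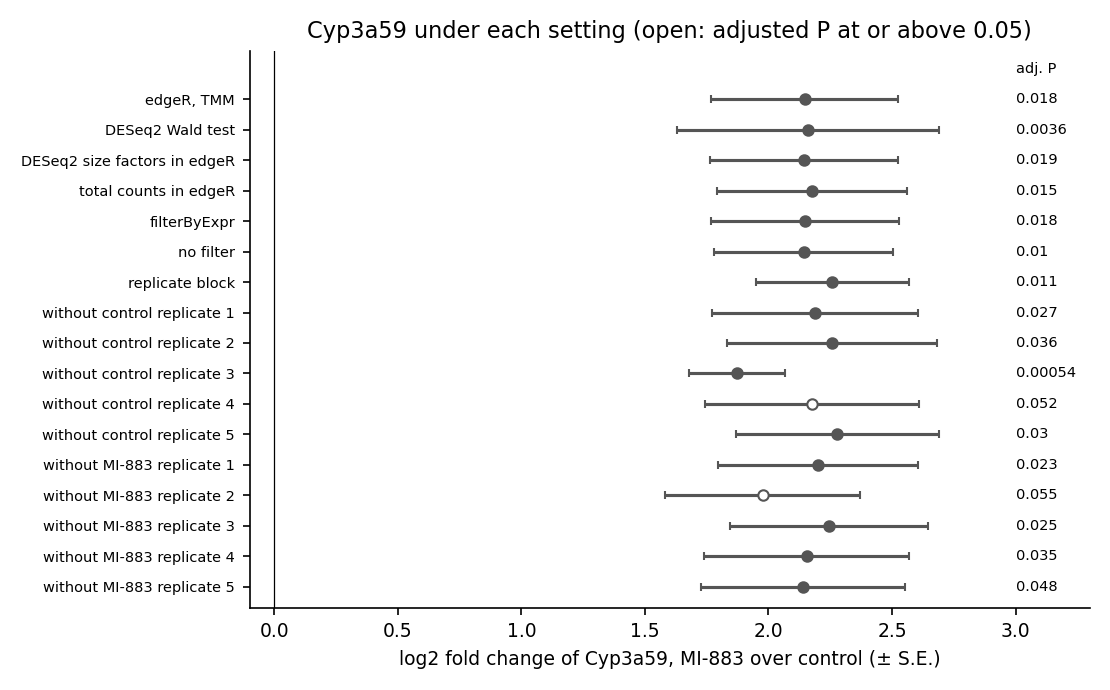
Log2 fold change of *Cyp3a59*, MI-883 over control, with its standard error under each choice of test, normalization, filter and left-out liver (open circles, adjusted P at or above 0.05). The estimates lie between 1.87 and 2.28, and the adjusted P is above 0.05 without control replicate 4 (0.052) and without MI-883 replicate 2 (0.055).

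*Cyp3a57* had 77, 133, 33, 85 and 117 counts in the control livers and 128, 112, 73, 109 and 89 counts in the treated livers. As CPM these are 2.15, 4.16, 1.35, 2.46 and 5.13 in control livers and 4.38, 4.96, 2.70, 4.74 and 3.16 in treated livers. All 5 treated livers lay above the median of the control livers, but none lay above every control liver. The means were 3.05 ± 1.55 CPM and 3.99 ± 1.0004 CPM (S.D., n = 5 each). The log2 fold change of *Cyp3a57* was 0.39 (SE 0.31, 95% interval −0.28 to 1.05), with an adjusted P of 0.573 in edgeR and 0.584 in DESeq2. Its interval includes no change and also a doubling on the linear scale, so these livers do not settle whether it changed.

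*Cyp3a13* was by far the most abundant member. It had 7255, 7993, 5667, 9741 and 7463 counts in the control livers and 7074, 7984, 5423, 7046 and 6318 counts in the treated livers. Scaled to CPM these are 203, 249.7, 232, 282 and 327 in control livers and 242, 353, 200.7, 307 and 224 in treated livers, and the groups overlapped almost in full. The means were 259 ± 48.0 CPM and 265 ± 63.0 CPM (S.D., n = 5 each). The log2 fold change of *Cyp3a13* was 0.04 (SE 0.16, 95% interval −0.31 to 0.38), with an adjusted P of 0.935 in edgeR. Its sign turned negative in 4 of the 10 fits that leave out a liver, so no direction is given.

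**Figure D3:**
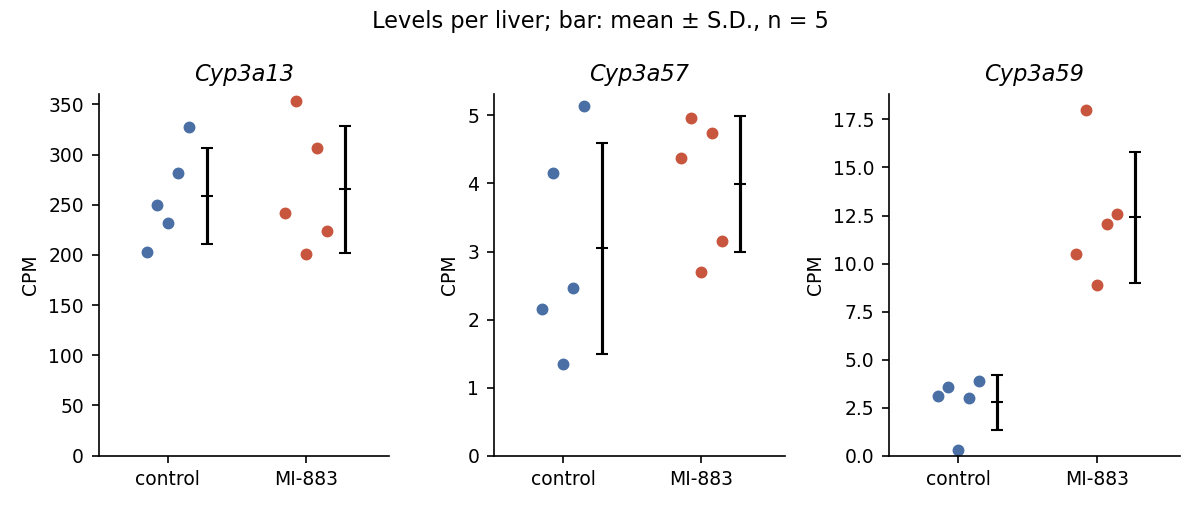
CPM of *Cyp3a13*, *Cyp3a57* and *Cyp3a59* in each of 5 control and 5 MI-883-treated livers, with the mean and S.D. of each group. The groups overlap for *Cyp3a13* and *Cyp3a57*, and for *Cyp3a59* the treated livers lie at 8.88 to 17.97 CPM and the control livers at 0.286 to 3.90 CPM.

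The pair at the edges of the cluster can be compared within each liver, which removes the library size. Per exon length, *Cyp3a57* was at 3.71 ± 1.87 TPM and *Cyp3a59* at 3.38 ± 1.76 TPM in control livers, and at 5.02 ± 0.919 TPM and 15.6 ± 3.51 TPM in treated livers (S.D., n = 5 each). The log2 ratio of *Cyp3a59* to *Cyp3a57* in TPM was 0.52, −0.23, −2.24, 0.29 and −0.40 in the control livers. It was 1.26, 1.85, 1.71, 1.34 and 1.99 in the treated livers. The mean ratio was −0.41 ± 1.09 in control and 1.63 ± 0.32 in treated livers on the log2 scale (S.D., n = 5 each), a difference of 2.04 (exact two-sided permutation test, P = 0.00794). This ratio was chosen after the values of both genes had been seen. The transcripts of *Cyp3a57* and *Cyp3a59* are 93.4% identical but share none of their 100-base stretches. Those of *Cyp3a25* and *Cyp3a59* are 97.0% identical, and 5.61% of *Cyp3a59* stretches also occur in *Cyp3a25*. *Cyp3a25* was at or under the floor in all livers, and whether its few counts came from *Cyp3a59* reads was not tested.

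**Figure D4:**
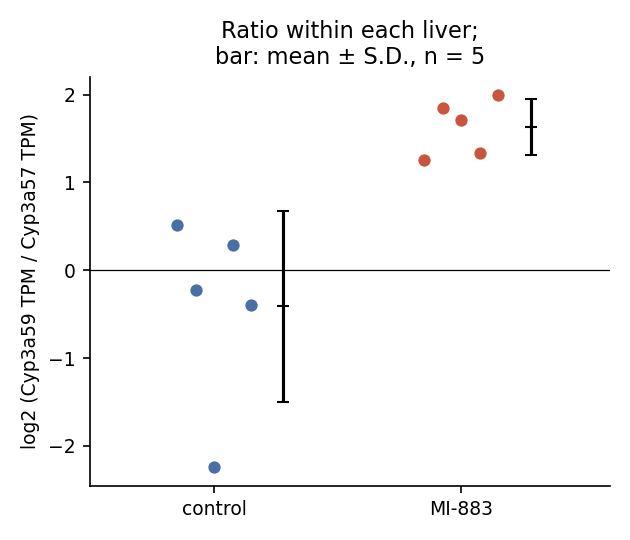
Log2 ratio of *Cyp3a59* to *Cyp3a57* (TPM) in each of 5 control and 5 MI-883-treated livers, with the mean and S.D. of each group as a bar. All 5 treated livers lie between 1.26 and 1.99 and all 5 control livers at or under 0.52.

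*Cyp3a13* held most of the counted Cyp3a message in both groups. Of the summed TPM of the 3 tested members it took 96.8% ± 1.32 in control livers and 91.6% ± 0.751 in treated livers (S.D., n = 5 each). *Cyp3a59* took 1.52% ± 0.79 and 6.33% ± 0.852, and *Cyp3a57* took 1.64% ± 0.642 and 2.04% ± 0.257. The order of the mean levels was *Cyp3a13*, *Cyp3a57*, *Cyp3a59* in control livers, where *Cyp3a57* and *Cyp3a59* differed by less than their S.D., and *Cyp3a13*, *Cyp3a59*, *Cyp3a57* in treated livers. Among 88 P450 genes ranked by mean TPM, *Cyp3a13* was at place 23 in control and 24 in treated livers, *Cyp3a57* at 55 and 56, and *Cyp3a59* at 58 and 44.

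The genes that act with the Cyp3a family were counted from lists. Of 21 tested genes for PXR, CAR and their partner proteins, 0 passed the edgeR test, while 2 had an unadjusted P under 0.05 (9.52%, beside 15.6% of all tested genes) and DESeq2 called 1, *Cebpa*, a liver transcription factor, lower (log2 fold change −0.30 in edgeR). The median log2 fold change of these genes was −0.05, beside 0.005 over all tested genes. The row of the mouse PXR gene *Nr1i2* was at 12.5 ± 2.46 CPM in control and 13.1 ± 1.15 CPM in treated livers (log2 fold change 0.07, SE 0.12, edgeR adjusted P = 0.812). The row of the mouse CAR gene *Nr1i3* was at 7.48 ± 1.64 and 6.67 ± 1.38 CPM (log2 fold change −0.16, SE 0.18, edgeR adjusted P = 0.696). Both receptors are humanized in these mice, and how reads of the human genes were assigned is not given in the sources used here. The same holds for reads of human CYP3A4 and CYP3A7, whose sequences were not compared with those of the mouse members.

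A list of 16 tested genes covered electron supply to P450 enzymes and the making, binding and breakdown of heme. Of these, 0 passed the edgeR test, 3 had an unadjusted P under 0.05 (18.8%, beside 15.6% of all tested genes), and the median log2 fold change was 0.06. DESeq2 called 2 of them higher, *Cyb5a*, the electron carrier cytochrome b5, and *Pgrmc1*, a heme-binding membrane protein, and it called *Pgrmc2* lower. *Por*, the reductase that every CYP3A enzyme depends on, was at 850 ± 231 CPM in control and 1147 ± 356 CPM in treated livers (log2 fold change 0.43, SE 0.22, edgeR adjusted P = 0.365).

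Many of the other listed target genes of PXR and CAR rose. Of 35 tested target genes outside the family, 20 were higher and 0 lower in the edgeR test (57.1%, beside 1.03% of all tested genes). Their median log2 fold change was 0.98. These genes may have been picked for their change in these data, so the share is a description and gives no independent support. The 8 with the lowest P were *Cyp2c55*, *Cyp2b10*, *Cyp2c50*, *Abcc4*, *Cyp2c54*, *Akr1b7*, *Cyp1a2* and *Cyp2c37*, with log2 fold changes between 1.66 and 4.80. *Cyp2b10*, the classic CAR target, went from 36.5 ± 9.10 to 1019 ± 299 CPM (log2 fold change 4.80, SE 0.25, edgeR adjusted P = 3.63e-07), beside 2.15 on the log2 scale for *Cyp3a59*. Of 72 tested P450 genes outside the Cyp3a family, 14 were higher and 0 lower in edgeR (19.4%, beside 1.03% of all tested genes), with a median of 0.13. DESeq2 called 16 of them higher and 5 lower, where it called 3.5% of all tested genes. Several of the genes called higher, among them *Cyp2b10* and *Cyp2c55*, are also among the target genes above, so the counts overlap.

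The genes around the members gave a local comparison. Within 1000000 bases of the cluster, 27 genes were listed and 24 tested, and 0 passed the edgeR test, while 3 had an unadjusted P under 0.05 (12.5%, beside 15.6% of all tested genes) and DESeq2 called 1, *Rnf6*, lower. Their log2 fold changes had a median of −0.08 and lay between −0.40 and 1.10, all below that of *Cyp3a59*. Within the same distance of *Cyp3a13*, 58 genes were listed and 47 tested, with a median of −0.03. Of these 47, 9 had an unadjusted P under 0.05 (19.1%, beside 15.6% of all tested genes). Among them 1 gene passed the edgeR test (2.13%, beside 1.03% of all tested genes), and 1 was called by DESeq2. It is not described further.

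**Figure D5:**
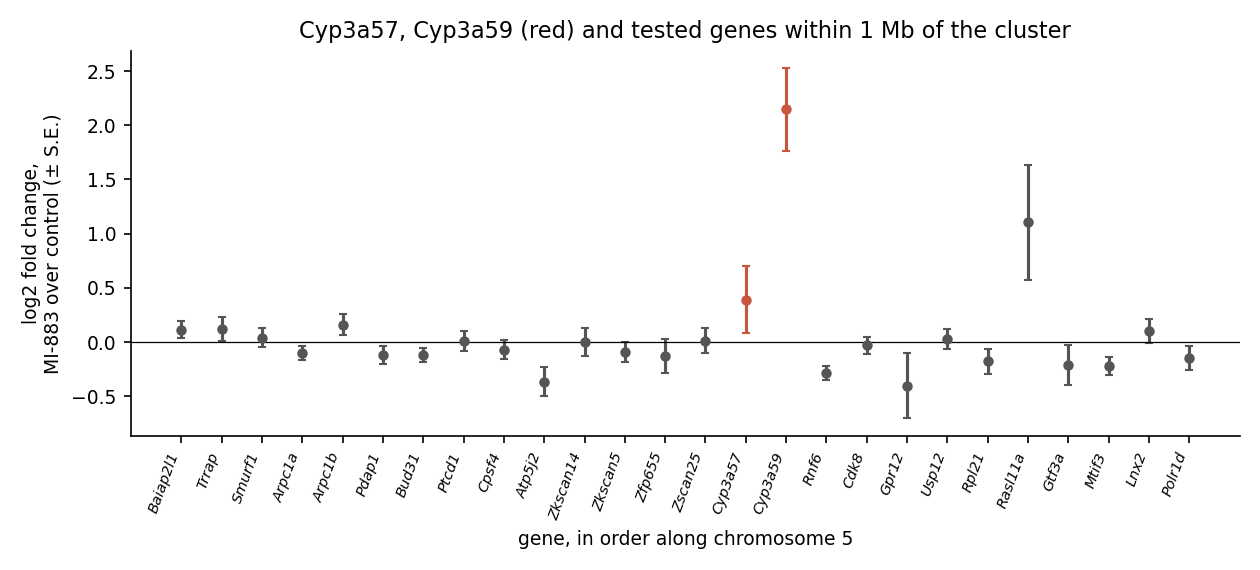
Log2 fold change, MI-883 over control, with its standard error for *Cyp3a57* and *Cyp3a59* (red) and the 24 tested genes within 1000000 bases of the cluster, in order along the chromosome. *Cyp3a59* stands at 2.15, *Cyp3a57* at 0.39, and the other genes lie between −0.40 and 1.10, of which the highest, *Rasl11a*, did not pass the test.

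The genes whose levels followed the members most closely over the 10 livers were taken by Pearson's r of log2 CPM among 11612 genes, as a description. For *Cyp3a59* they were *Tbc1d7* (r = 0.929), *Slc22a29* (0.913) and *Pdk4* (0.904), for *Cyp3a57* *Fmo1* (0.937), *Ppp1cc* (0.923) and *Coq8b* (0.909), and for *Cyp3a13* *Sbk1* (0.979), *Tm6sf2* (0.967) and *Eci2* (0.962). The 10 points of each r share the libraries and hold both groups, so for *Cyp3a59* the r includes the difference between control and treated livers.

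Library totals were 24014461 to 36221514 counts in control and 23513665 to 28349963 in treated livers. The label of liver was checked with markers. Of 10 hepatocyte markers, 9 were listed, all above the floor in every liver, and their summed level was 93109 to 107838 CPM in control and 76658 to 92745 CPM in treated livers, which moved with the groups in the direction opposite to *Cyp3a59*. None of the 9 passed the edgeR test, 6 had an unadjusted P under 0.05 (66.7%, beside 15.6% of all tested genes) and DESeq2 called 1 lower. Of 8 enterocyte markers, 6 were listed and 0 were above the floor in every liver, with sums of 0.132 to 0.5 CPM in control and 0.133 to 0.547 CPM in treated livers, so the marker genes of the other main site of CYP3A expression were near 0. Bile duct markers summed to 33.9 to 129 CPM in control and 45.8 to 202 CPM in treated livers. The largest part was *Spp1*, at 49.4 ± 37.7 and 87.8 ± 67.3 CPM (edgeR adjusted P = 0.491). Of 6 tested bile duct markers, 0 passed the edgeR test and 1 had an unadjusted P under 0.05 (16.7%, beside 15.6% of all tested genes). Their log2 fold changes lay between 0.05 and 0.83. The summed level of 12 male-biased liver genes was 6470 to 11107 CPM in control and 10778 to 14469 CPM in treated livers, and *Cyp2d9* and *Cyp4a12a* among them passed the edgeR test upward. *Mup20*, which did not pass, had the largest part of that sum (6816 and 8173 CPM), the median log2 fold change of the 12 genes was 0.05, and 6 of them had a value below 0. The part of these differences in the result for *Cyp3a59* was not tested.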

How the data were processed

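Liver RNA of 5 control and 5 MI-883-treated mice was sequenced as directional paired-end libraries. Reads were trimmed with fastp 0.23.0 according to the submitters' processing notes, aligned to the mouse genome (mm10) with STAR and counted per gene with featureCounts. The deposited table holds raw, unnormalized counts, with Entrez numbers as gene names. The versions of STAR and featureCounts, the annotation, the strand setting and the treatment of reads with several places are not given in the sources used here, and these decide the counts of near copies such as *Cyp3a41a* and *Cyp3a41b*. Symbols and positions were taken from RefSeq on GRCm38 (16644 of 16647 genes matched, 3 not), and exon lengths for TPM and transcript sequences from GENCODE M21 (71 genes without a length were left out of TPM).

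A gene was tested where its counts in the 10 livers added up to 60 or more (13219 genes, with 3428 below). Groups followed the labels, and the quasi-likelihood test of edgeR 4.0.16 (R 4.3.3) was fitted to TMM-normalized counts with treatment alone in the model, P being adjusted by Benjamini-Hochberg over all tested genes with a threshold of 0.05. Levels are CPM or TPM with the S.D. over livers. Single values were also compared by exact two-sided permutation of 5 livers against 5 (252 splits, NumPy 2.4.6). The floor was 3 counts. DESeq2 1.42.0, other normalizations and filters, the replicate number as a block, a 150-base stretch for shared sequence and leaving out each liver were the alternatives. On simulated data of 13219 genes, edgeR recovered 90% of genes changed by 1 and 100% of genes changed by 2 on the log2 scale, with 5.94% false calls, and DESeq2 recovered 93% and 100% with 16.5% false calls.

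The 9 members are listed by family name and not by a measured value, but the family was taken up with earlier results of these data known. The gene lists were chosen with those results known too. Their genes may have been picked for their change, so the lists give no independent support. Named beside the 9 members are, of each list, up to 8 called genes per direction by lowest P, *Nr1i2*, *Nr1i3*, *Por* and *Cyp2b10*, called and nearest flanking genes, and the 3 genes most alike each tested member among those of at least 1 CPM on average. Genes named for a DESeq2 call, or for the largest part of a marker sum, were chosen after their values were seen. A gene that falls under this rule is not reported here.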

Additional observations from a re-analysis of the deposited data

Results flagged for a closer look

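Of 10 groups of 5 livers checked among the members, 2 held a liver far from the others by Dixon's criterion (critical share 0.71). Chance flags about 5% of groups for continuous values, which does not hold for counts near 0. The control groups of *Cyp3a11* and *Cyp3a25* were 0 throughout and could not be flagged, so the 2 flags cannot be set against the 5%. *Cyp3a59* in control replicate 3 was at 0.286 CPM, and the nearest control liver was at 3.01 CPM, a gap of 0.753 of the whole range. That library was the lowest and apart in 0.34% of genes, within the range of the other livers (0.182% to 0.552%). *Cyp3a11* in MI-883 replicate 1 was at 1 count, where the other 4 treated livers had 0, which is under the floor of 3 counts. With 4 values of 0, any other count is flagged.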

How the results depend on the processing

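Among all tested genes, 136 were called and 101 of them higher, against 463 and 291 with the Wald test of DESeq2. Leaving out each liver gave 62 to 208 calls and 52 to 148 higher. The log2 fold change of *Cyp3a59* was 1.87 to 2.28 when each liver was left out and 2.14 to 2.26 under 6 other alternatives, of which all kept the call. That of *Cyp3a13* was −0.088 to 0.135 with each liver left out, reversed in sign without control replicate 1, control replicate 3, MI-883 replicate 2 or MI-883 replicate 4, and 0.03 to 0.07 otherwise. That of *Cyp3a57* was 0.21 to 0.64 and 0.386 to 0.485, never called. With 60 counts required in every liver, *Cyp3a57* and *Cyp3a59* could not be fitted.

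Little pairing by replicate number was seen. Of 5 correlations of same-numbered livers, 1 was over 0.1 (0.356, replicate 1), and 1 of 10 livers correlated best with its own number. Whether same-numbered livers shared a step of handling was not tested. With the replicate number as a block, 89 genes were called, and *Cyp3a59* was still called (2.26, adjusted P = 0.0113). Of the PXR and CAR partner genes, DESeq2 called 1 lower. Of the electron and heme partners, DESeq2 called 2 higher and 1 lower, total counts in place of TMM 2 higher, and 60 counts in every liver and filterByExpr 1 lower each. Near the cluster DESeq2 called 1 gene. Near *Cyp3a13*, 1 gene was called in the reported test and with DESeq2, its size factors, filterByExpr and no filter, 0 were called with total counts, with 60 counts in every liver and with the block, and 0 to 1 with each liver left out. The PXR and CAR targets called higher numbered 17 to 23 throughout. At 150 bases the shared stretches fell to 82.9% for *Cyp3a41a*, 82.7% for *Cyp3a41b*, 0.702% for *Cyp3a25*, 0.706% for *Cyp3a59* and 0% for *Cyp3a11*, *Cyp3a16* and *Cyp3a44*, since longer stretches are less often shared. The causes of the other changes were not tested. *Cyp3a11* and *Cyp3a25* stayed at or under the floor of 3 counts in every liver, and the reason was not tested.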
